A study of Homo sapiens with 18 samples.

Results

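The nuclear genes of the respiratory chain were followed in hTERT RPE-1 cells, an established line that comes from human retinal pigment epithelium and was made immortal with telomerase. They were chosen by gene symbol: the NDUFA, NDUFB, NDUFC, NDUFS and NDUFV subunits of complex I, the SDH subunits of complex II, the UQCR subunits and CYC1 of complex III, and a set of COX subunits of complex IV. This gave 60 of the 58051 genes in the files, of which 37 belong by name to complex I, 4 to complex II, 9 to complex III and 10 to complex IV. Of the 60, 58 passed the filter on low counts that left 14186 genes for testing.

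All 6 groups were grown in 10% serum and kept for 48 h in 0.1% serum, which the labels describe as G0/G1. In 3 groups the cells then received 50 µM etoposide, which traps topoisomerase II on cut DNA, for 30 min, and the other 3 groups are named DMSO in the sample titles. RNA was collected at time points 0, 20 and 40 of a series with 10 µM triptolide, which blocks transcription. The labels give no unit for these time points and do not say whether triptolide was already present at 0. Each group held 3 libraries that the labels call independent replicates, all of 1 cell line, so the p-values measure the spread between these cultures only. The design text states RNA stability and expression under etoposide as the question.

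The respiratory chain passes electrons from NADH and succinate through complexes I and II to ubiquinone, through complex III to cytochrome c and through complex IV to oxygen, and complexes I, III and IV pump protons. Most subunits are encoded in the nucleus and imported, and a few core ones are encoded by mitochondrial DNA, so both genomes must be expressed for assembly. Their nuclear promoters are known for binding NRF1, GABPA of the ETS family, YY1 and SP1, and their mRNAs are known in other cells as abundant and long-lived.

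The promoters were read from RefSeq for GRCh38.p14, which gave 58 windows of 300 bases (250 before and 50 after a start) for 50 of the members. CYC1, NDUFB5, NDUFA4, NDUFC2, NDUFB9, NDUFS5, SDHC, UQCRB and COX6C had no entry there. The letters GCATGCG, the core of the NRF1 motif, stood on either strand in 17.24% of the members' windows, against 3.91% of all 35116 windows and 5.63% of the 15424 windows of tested genes. The ETS letters CCGGAAG stood in 25.86%, against 10.26% and 16.67%. The YY1 letters AAGATGG stood in 22.41%, against 5.84% and 7.0%. The SP1 letters GGGCGG stood in 62.07%, against 44.95% of all windows and 65.56% of those of tested genes, and the TATA letters TATAAA in 8.62%, against 11.53% and 6.16%. These are matches of letters and no measure of binding. Shown here are 140 bases within the window of 1 member each of complexes I, II and IV, chosen because each holds the NRF1 letters and 2 of them also the ETS letters. Capitals mark GCATGCG and CCGGAAG on either strand, with overlapping matches joined.

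NDUFS7 promoter, chr19:1383767-1383906, plus strand: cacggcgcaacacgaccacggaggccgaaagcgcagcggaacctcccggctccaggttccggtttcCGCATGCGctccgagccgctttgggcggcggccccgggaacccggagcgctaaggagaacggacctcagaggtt

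SDHD promoter, chr11:112086733-112086872, plus strand: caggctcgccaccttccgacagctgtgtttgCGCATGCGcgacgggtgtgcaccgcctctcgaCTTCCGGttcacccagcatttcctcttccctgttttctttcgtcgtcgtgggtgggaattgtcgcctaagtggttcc

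COX5B promoter, chr2:97645922-97646061, plus strand: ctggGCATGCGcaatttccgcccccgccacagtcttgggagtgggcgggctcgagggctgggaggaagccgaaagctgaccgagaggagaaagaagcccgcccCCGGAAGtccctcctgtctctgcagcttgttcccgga

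NDUFS7 is the complex I subunit that holds the last iron-sulfur cluster before ubiquinone, SDHD is a membrane anchor of complex II, and COX5B is a zinc-binding subunit of complex IV.

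For each gene the principal coding transcript of the annotation was taken, and the longest where several ranked equal. Those of the members were short, with a median of 1060.5 bases, against 3256 bases over the 12168 tested genes with a coding transcript. Their 3′UTRs had a median of 226.5 bases, against 1135 bases. The letters GGACT, the commonest form of the m6A consensus, stood in the transcripts of 40 of 60 members (66.67%), against 91.79% of tested genes. Per kb of transcript the 2 sets were closer, at 0.837 matches in the members and 0.974 in tested genes. The AU-rich pentamer ATTTA stood in the 3′UTR of 29 of 60 members (48.33%), against 70.6% of tested genes, with 2.142 and 2.309 matches per kb of 3′UTR.

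Total counts ranged from 7957691 to 11580219 per library (median 10114787.5), so a floor of 3 counts was worth 0.259 to 0.377 CPM (CPM, read counts per library scaled with TMM factors to the same total). The members together took 0.3643% (exact Clopper-Pearson 95% interval 0.3608 to 0.3678) to 0.5521% (0.5476 to 0.5565) of a library's counts, intervals that cover counting error only. Of the 10 retinal pigment epithelium markers, MITF (median 38.4 CPM), OTX2 (27.6 CPM) and SERPINF1 (11.2 CPM) were expressed in every library. PMEL (1.23 CPM) and RLBP1 (0.834 CPM) had low medians above the floor. RPE65 (0.109 CPM), LRAT (0.242 CPM) and TYRP1 (0.263 CPM) lay at or under the floor, and TTR was at 0 in all 18 libraries. Of the other epithelial markers, KRT8 (670 CPM) and KRT18 (570 CPM) were expressed in every library, and EPCAM, CDH1, KRT5 and KRT14 had a median of 0. Of the mesenchymal markers, VIM, THY1, PDGFRB and COL1A1 were expressed in every library, and COL1A2 (0.0882 CPM) and COL3A1 (0.33 CPM) lay at or under the floor, while the 8 blood and endothelium markers summed to 0.623 to 4.52 CPM. BEST1 ranged from 0.516 to 2450 CPM. The libraries numbered 3 stood apart from the others. Across groups, their deviations from the group means correlated at -0.785 to -0.531 with those of numbers 1 and 2. Numbers 1 and 2 correlated with each other at 0.392 to 0.63. The deviations within a group sum to 0, so negative correlations are partly built in. Results without the libraries numbered 3 are given beside the main ones.

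The members were strongly expressed for their length. Their median level was 71.6 CPM, against 24.38 CPM over all tested genes, and 26.57 CPM per kb of exons, against 4.815 CPM per kb. In the ranking of all tested genes, the median member stood at percentile 77.8 by CPM and 88.3 by CPM per kb. By complex, the median levels were 19.19 CPM per kb for complex I, 21.85 for complex II, 39.59 for complex III and 57.16 for complex IV. With the longest transcript as the length they were 31.03, 50.73, 48.79 and 109.2, so the order of complexes II and III depends on the length used.

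The members of complexes I, II and III that were highest per kb of exons had the following CPM in each group, not scaled for length. NDUFS5 averaged 113 ± 29.9, 124 ± 33.8 and 118 ± 24.6 CPM at 0, 20 and 40 with etoposide, and 117 ± 15.5, 116 ± 24.5 and 122 ± 30.4 CPM with DMSO (SD, n = 3 each). SDHB averaged 64.5 ± 9.69, 66.1 ± 6.18 and 65.3 ± 6.7 CPM at 0, 20 and 40 with etoposide, and 67.2 ± 6.31, 67.6 ± 6.34 and 66.8 ± 11.6 CPM with DMSO (SD, n = 3 each). UQCRH averaged 101 ± 12.7, 109 ± 22.6 and 102 ± 16.2 CPM at 0, 20 and 40 with etoposide, and 112 ± 15.4, 108 ± 11.7 and 115 ± 34.4 CPM with DMSO (SD, n = 3 each).

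For each of these 3 genes the group means spanned less than the largest SD of a group. COX8A averaged 109 ± 26.4, 107 ± 18.9 and 121 ± 26.5 CPM at 0, 20 and 40 with etoposide, and 121 ± 31.8, 124 ± 36.5 and 117 ± 30.3 CPM with DMSO (SD, n = 3 each).

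**Figure D1:**
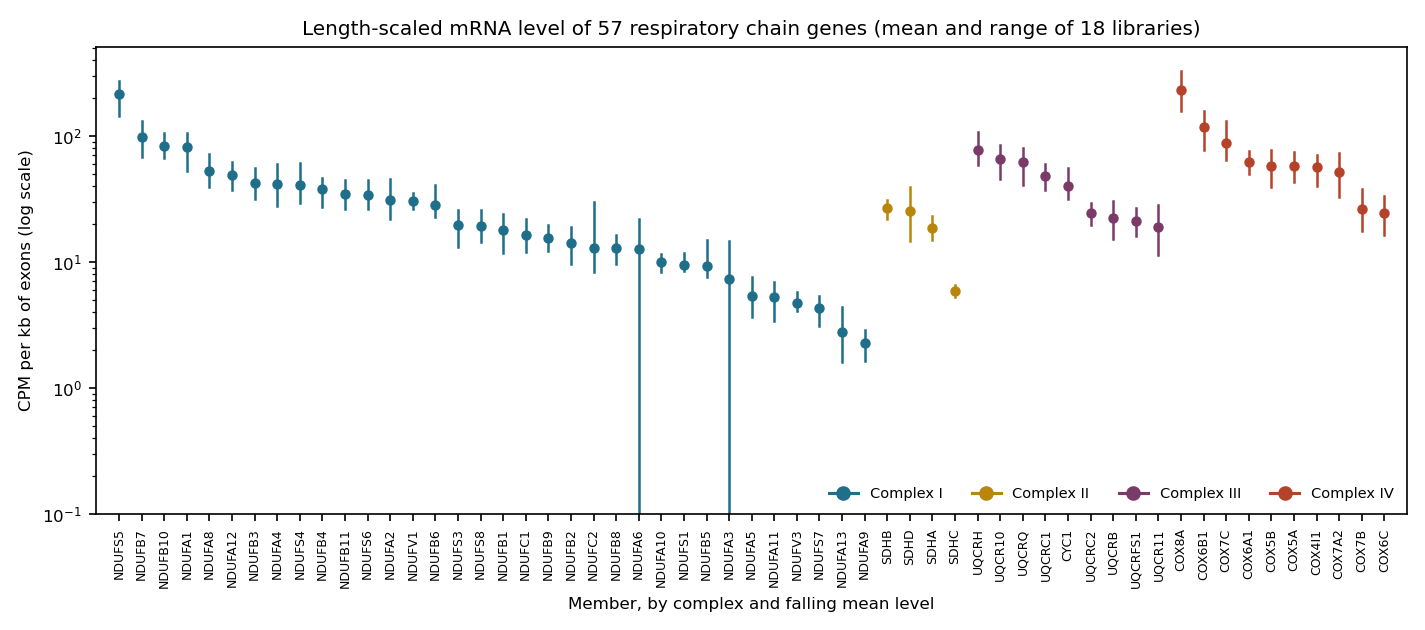
Level of 57 members in CPM per kb of exons (log axis), ordered within complexes I to IV by falling mean. Points are means and lines the range over the 18 libraries. COX8A (230.1) and NDUFS5 (216.1) stand highest, NDUFA9 (2.27) lowest, and the lines of NDUFA6 and NDUFA3 run off the foot because of libraries at or near 0.

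In complex I the levels spanned the widest range. NDUFS5, an accessory subunit on the intermembrane-space side (chr1:39026318-39034636, GRCh38), averaged 216.1 CPM per kb, and NDUFA9, an accessory subunit near the quinone site, averaged 2.27 CPM per kb. Not scaled for length, the lowest, median and highest of the 18 libraries were 78.9, 127 and 149 CPM for NDUFS5 and 16.97, 23.3 and 30.0 CPM for NDUFA9, the lowest in each case being a replicate 3 library. Counts per kb of all annotated exons understate a gene whose annotation holds long exons that these cells do not use. The catalytic subunits NDUFV1, which takes electrons from NADH, and NDUFS1, which carries iron-sulfur clusters, averaged 30.32 and 9.481 CPM per kb.

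In complex II, SDHB, the iron-sulfur subunit, averaged 26.91 CPM per kb, SDHA, the flavoprotein, 18.6, and the anchors SDHD and SDHC 25.1 and 5.828. In complex III, UQCRH, the acidic hinge protein that helps cytochrome c bind, averaged 76.68 CPM per kb, and UQCR11, a small subunit, 18.98. The electron carriers CYC1 (cytochrome c1) and UQCRFS1 (the Rieske iron-sulfur protein) averaged 39.59 and 21.09. In complex IV, COX8A, a small membrane subunit, averaged 230.1 CPM per kb, and COX6C 24.25. COX4I1, which binds adenine nucleotides in the enzyme, had the highest level of all members not scaled for length, 272.5 CPM.

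Over the 18 libraries, SDHC had a lowest, median and highest value of 74.6, 80.1 and 92.5 CPM, UQCR11 of 24.4, 41.5 and 60.9 CPM and COX6C of 49.7, 73.5 and 101 CPM. SDHC varied least of the members, by a factor of 1.24 between the highest and the lowest library, and NDUFC2 most among those detected everywhere, by a factor of 3.59.

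The 2 members that failed the filter were both of complex I. NDUFV2, the partner of NDUFV1 in the NADH-oxidising module, had 69 counts in all 18 libraries together and NDUFA7, an accessory subunit, 77. NDUFA7 shares 32.272% of its exon bases with the same-strand gene AC010323.1, which had 1 count. NDUFV2 shares 28.44% with AP005263.1, which had 0 counts, and has a pseudogene, NDUFV2P1, that took 166 counts. Both are uncertain as levels, and the reason for their low counts was not tested. Among the tested members, levels are likewise uncertain for NDUFB11, which shares 44.852% of its exon bases with RBM10 on the opposite strand, NDUFA1, which shares 44.517% with RNF113A on the opposite strand, NDUFS7, which shares 35.749% with AC005329.1 on the opposite strand, COX8A, which shares 34.517% with AP000721.1 on its own strand, and NDUFB8, which shares 33.767% with AL133352.1 on its own strand. AP000721.1 had 0 counts in all libraries. Pseudogenes named after SDHA took counts equal to 6.959% of its own. How the counting treated strand and reads shared by genes is not given in the sources used here. Of the mitochondrial DNA, all 13 protein-coding genes had 0 counts in all libraries, as had the 37 genes of that chromosome together, so the partner subunits encoded there could not be followed.

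Over the triptolide series no respiratory chain mRNA passed the test in either arm, and few of all tested genes did. Of 6 early-response genes, chosen with earlier results of these data known, 4 were called lower in both arms. Between time points 40 and 0, edgeR's quasi-likelihood test called 0 of 58 members in the etoposide arm, where 0.204% of all tested genes were called. In the DMSO arm it called 0 of 58, where 0.423% were called. With shares this low, 0 of 58 does not set the members apart from other genes. In both arms 0 members had an unadjusted p under 0.05, by edgeR, DESeq2 and limma-voom alike. All of these fits held the groups alone, so the spread between replicate numbers stayed in their error. The median log2 change of the members was 0.0797 with etoposide, against 0.0027 over all tested genes, and -0.00513 with DMSO, against 0.00551. Scaled to the cytosolic ribosomal protein genes, the etoposide median was -0.00634, against -0.0874 over all tested genes. With the replicate number as a block, still 0 members were called in either arm, where 1.01% of all tested genes were called with etoposide and 1.22% with DMSO. Under this block, too, 0 members had an unadjusted p under 0.05 in either arm. Each of these comparisons scales the libraries to each other, so a loss common to all mRNAs would not be seen, and in bulk samples fewer cells and less RNA per cell cannot be told apart.

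**Figure D2:**
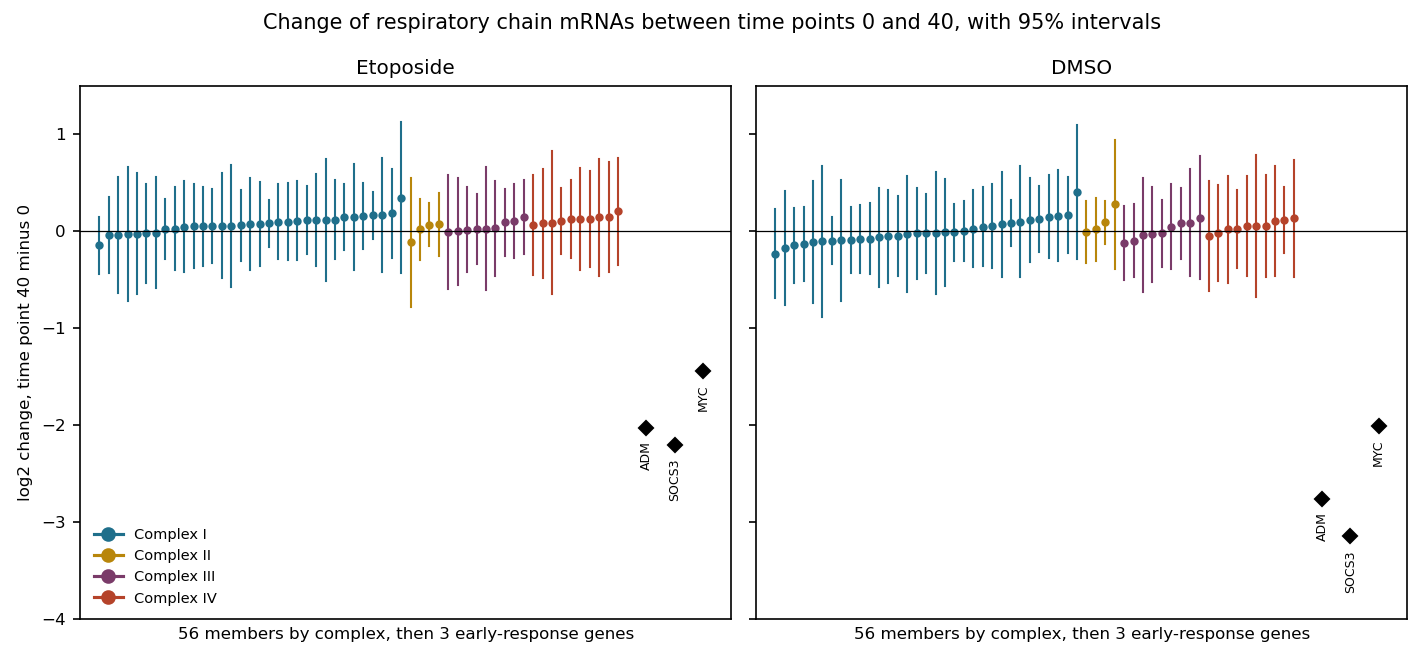
Log2 change between time points 40 and 0 in the etoposide (left) and DMSO arms, with 95% intervals from edgeR, for the 56 tested members other than NDUFA3 and NDUFA6, coloured by complex. The members lie around 0, from -0.14 to 0.35 with etoposide and from -0.23 to 0.41 with DMSO. ADM, SOCS3 and MYC (diamonds), early-response genes that were called in both arms, lie between -1.44 and -3.15.

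Of the early-response genes, ADM, SOCS3, MYC and IER2 were called in both arms. FOS and JUN were also lower at 40 but were not called. Their log2 changes were -2.18 (FOS) and -0.948 (JUN) with etoposide, and -2.59 and -1.6 with DMSO. The edgeR adjusted p was 1 for both with etoposide, and 0.577 for FOS and 0.274 for JUN with DMSO. With the replicate block all 6 were called in both arms, the highest adjusted p being 0.00849, for FOS with etoposide. ADM, the adrenomedullin gene, had 26.7, 32.7 and 25.8 CPM at time point 40 with etoposide, against 129, 116 and 103 CPM at 0. It had 19.5, 19.4 and 21.0 CPM at 40 with DMSO, against 148, 142 and 117 CPM at 0. It fell by 2.03 (SE 0.157) with etoposide and fell by 2.76 (SE 0.161) with DMSO on the log2 scale, at edgeR adjusted p of 9.5e-06 and 1.45e-07. The 95% interval of 55 of the 58 members in each arm lay within a log2 change of ±1, that is within a 2-fold change either way.

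In complex I the members with the largest changes with etoposide were NDUFA13 upward and NDUFV3 downward. NDUFA13, a membrane-arm subunit also known as GRIM-19 that shares 16.137% of its exon bases with the same-strand gene AC011448.1, had 11.8, 9.19 and 5.54 CPM at 40, against 7.37, 8.44 and 5.09 CPM at 0. The groups overlapped, and the log2 change was 0.35 (SE 0.367, edgeR adjusted p = 1). NDUFV3, an accessory subunit of the NADH-oxidising module, had 27.7, 28.1 and 28.5 CPM at 40, against 27.5, 35.1 and 30.5 CPM at 0, and also overlapped, with a log2 change of -0.14 (SE 0.139, edgeR adjusted p = 1).

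The next largest negative values with etoposide belonged to SDHD, NDUFB5 and NDUFA4. SDHD had 50.5, 59.8 and 81.8 CPM at 40, against 77.6, 41.9 and 88.4 CPM at 0, a log2 change of -0.11 (SE 0.312). NDUFB5 had 48.0, 55.2 and 52.8 CPM at 40, against 59.6, 44.5 and 56.3 CPM at 0, a log2 change of -0.04 (SE 0.185). In both genes replicate 2 was higher at 40 and replicates 1 and 3 were lower.

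NDUFA4, which is named for complex I but is known as a subunit of complex IV, had 154, 154 and 103 CPM at 40, against 158, 161 and 103 CPM at 0. All 3 replicate numbers were slightly lower at 40, by far less than the distance between replicate 3 and the others, and the log2 change was -0.04 (SE 0.282).

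NDUFB7 and NDUFB2, accessory subunits of the membrane arm, had opposite signs in the 2 arms. NDUFB7 had 59.3, 51.7 and 45.0 CPM at 40 with etoposide, against 44.2, 56.8 and 36.3 CPM at 0. With DMSO it had 59.4, 52.5 and 42.7 CPM at 40, against 63.5, 69.7 and 48.2 CPM at 0. Its log2 changes were 0.18 (SE 0.218) with etoposide and -0.23 (SE 0.217) with DMSO, and their difference of 0.41 (SE 0.307) had an edgeR adjusted p of 0.9999, and of 0.9915 (difference 0.42, SE 0.21) with the replicate block. Within replicates 1, 2 and 3 it was 0.517, 0.271 and 0.481. NDUFB2 had 74.2, 74.5 and 42.6 CPM at 40 with etoposide, against 62.5, 64.0 and 43.9 CPM at 0. With DMSO it had 75.2, 63.5 and 46.4 CPM at 40, against 76.3, 81.4 and 51.3 CPM at 0. Its log2 values were 0.17 (SE 0.277) with etoposide and -0.18 (SE 0.277) with DMSO, and neither passed the test. Their difference was 0.34 (SE 0.392, edgeR adjusted p = 0.9999), 0.32 (SE 0.177, adjusted p = 0.9915) with the replicate block, and 0.267, 0.575 and 0.104 within replicates 1, 2 and 3. For both genes the difference had 1 sign in all 3 replicate numbers and did not pass the test in either fit.

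With DMSO, NDUFS6 and NDUFC1 followed as the most negative. NDUFS6, a zinc-binding subunit of the peripheral arm, had 50.9, 53.5 and 37.9 CPM at 40, against 48.5, 57.5 and 51.4 CPM at 0, a log2 change of -0.15 (SE 0.183). NDUFC1, which shares 18.547% of its exon bases with the same-strand gene MGARP, had 37.5, 26.1 and 29.5 CPM at 40, against 31.7, 35.0 and 35.5 CPM at 0, a log2 change of -0.13 (SE 0.18). The groups overlapped for both.

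With DMSO the largest positive values were those of NDUFC2, SDHD, NDUFA6 and NDUFB5, and in NDUFC2, SDHD and NDUFB5 only replicate 1 was higher at 40. NDUFC2, a membrane-arm subunit needed for assembly (chr11:78068304-78080219, GRCh38), had 79.3, 26.4 and 39.4 CPM at 40, against 32.7, 33.4 and 43.4 CPM at 0. NDUFC2 shares 16.252% of its exon bases with the same-strand readthrough gene NDUFC2-KCTD14, which had 2 counts in all libraries. Only replicate 1 was high at 40, and the log2 change of 0.41 (SE 0.325) turned to -0.149 without that library. SDHD of complex II had 112, 59.2 and 89.5 CPM at 40, against 59.7, 63.1 and 91.8 CPM at 0, so the groups overlapped. NDUFB5 followed the same pattern, with 86.8, 48.3 and 48.5 CPM at 40, against 54.0, 52.7 and 56.3 CPM at 0, a log2 change of 0.17 (SE 0.185). The SDHD log2 change of 0.28 (SE 0.312) was 0.0561 without replicate 1 of that group. NDUFA6 had 30.1, 26.6 and 0 CPM at 40, against 28.8, 20.7 and 0 CPM at 0, with the larger difference in replicate 2. Its log2 change of 0.20 (SE 2.1) was -0.385 without replicate 3 at 0, -0.301 without replicate 1 at 40 and -0.13 without replicate 2 at 40.

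That library, DMSO at 40, replicate 1, had more of nearly all members. Set against the other replicate 1 libraries, 53 of 58 members were higher, with a median log2 difference of 0.221, against -0.00621 over all tested genes. NDUFC2 differed by 1.44, SDHD by 0.94, NDUFA5, a subunit of the peripheral arm, by 0.75 and NDUFB5, of the membrane arm, by 0.73. Over 56 members the difference had a Spearman rho of -0.646 with the GC content of the transcript, given as a description of values that share 1 library. The part of this library's GC pattern in the results was not tested.

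Without that library the median log2 change of the members between 40 and 0 with DMSO was -0.134, and 6 of 58 were positive, against 28 of 58 with it. The median within replicates 1, 2 and 3 was 0.232, -0.1 and -0.155. With etoposide the medians within replicates 1, 2 and 3 were 0.1, 0.0612 and 0.116. Without replicate 3 of every group the median was 0.0925 with etoposide (46 positive) and 0.0723 with DMSO (39 positive). Leaving out single libraries moved the etoposide median between -0.0394 (without replicate 3 at 0, with 21 of 58 positive) and 0.203 (without replicate 3 at 40). Each fit without a single library had no replicate block and left the groups unequal in replicate numbers. The difference between replicate 3 and the others therefore enters its median.

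At time point 20 against 0, edgeR called 0 of 58 members in either arm, where 0% of all tested genes were called, and DESeq2 and limma-voom also called 0. In the main test 0 members had an unadjusted p under 0.05 in either arm. With the replicate block in edgeR 1 member did with etoposide and 0 did with DMSO. The median log2 change of the members was 0.081 with etoposide and 0.0176 with DMSO. It was -0.036 with etoposide without replicate 3 at 0, and -0.149 with DMSO without replicate 2 at 20. Without replicate 3 of every group it was 0.0664 with etoposide and 0.00318 with DMSO. The fits without a single library were again unequal in replicate numbers. In each arm the comparisons of 20 and of 40 share the libraries at 0. COX7B, a small subunit of complex IV, had the largest positive value, 0.28 (SE 0.285) with etoposide.

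By complex, the medians between 40 and 0 were 0.0772 (I), 0.0438 (II), 0.0268 (III) and 0.126 (IV) with etoposide, and -0.0217, 0.0561, -0.0219 and 0.0548 with DMSO. In complex IV all 10 tested members were positive with etoposide and 8 of 10 with DMSO, and 0 passed the test. With DMSO all 10 were positive within replicate 1, 2 within replicate 2 and 1 within replicate 3, with medians of 0.307, -0.0907 and -0.156, so the positive DMSO values of complex IV rest on replicate 1, which holds the library at 40 described above. COX6C had 71.3, 94.0 and 55.8 CPM at 40 with etoposide, against 72.4, 63.1 and 56.3 CPM at 0. Only replicate 2 was clearly higher, and the log2 change was 0.21 (SE 0.259, edgeR adjusted p = 1).

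**Figure D3:**
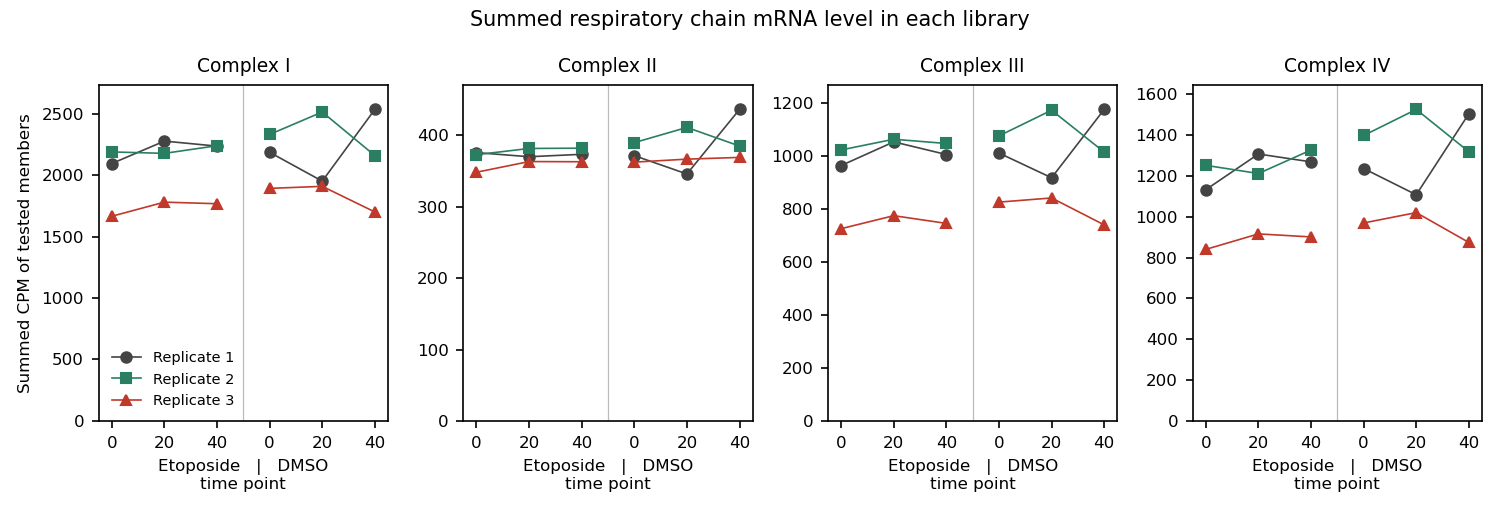
Summed CPM of the tested members of complexes I to IV in each library, by time point with etoposide (left of the line) and DMSO (right), on axes from 0. Lines join libraries of 1 replicate number. Replicate 3 is lowest in complexes I, III and IV in all 6 groups, and replicate 1 of DMSO at 40 is the highest or next to it.

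The comparison of the arms at 0 uses the libraries that also serve as the starting point of the changes above. At time point 0, edgeR called 0 of 58 members between etoposide and DMSO, where 0% of all tested genes were called, 0 members had an unadjusted p under 0.05, and DESeq2 and limma-voom called 0 members. With etoposide, 7 of the 58 members had a positive log2 difference, and the median was -0.118, against -0.00585 over all tested genes. Without replicate 3 of every group it was -0.0633 with 17 positive, and leaving out single libraries moved it between -0.23 (without etoposide replicate 2 at 0) and 0.0112 (without etoposide replicate 3 at 0). These single-library fits had no replicate block, so the difference between replicate 3 and the others enters them. With the block and all libraries the median was -0.128 with 7 positive, and edgeR gave 2 members an unadjusted p under 0.05. Scaled to the cytosolic ribosomal protein genes, it was -0.00315 with 27 of 58 positive, while the median of all tested genes moved to 0.127.

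NDUFB7 had the largest difference at 0, with 44.2, 56.8 and 36.3 CPM with etoposide, against 63.5, 69.7 and 48.2 CPM with DMSO. It was lower with etoposide in each of the 3 replicate numbers, although the groups overlapped across numbers. The log2 difference was -0.40 (SE 0.218, edgeR adjusted p = 0.9998), and -0.40 (SE 0.149, adjusted p = 0.7552) with the replicate number as a block.

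At time points 20 and 40 edgeR again called 0 of 58 members, where 0% of all tested genes were called, with 0 members at an unadjusted p under 0.05. DESeq2 and limma-voom called 0 members, with 1 member at an unadjusted p under 0.05 by DESeq2 at 40. The median log2 differences between etoposide and DMSO were -0.0347 and -0.0525, and without replicate 3 of every group -0.00658 and -0.0791. NDUFC2 at 40 had 25.03, 26.8 and 38.2 CPM with etoposide, against 79.3, 26.4 and 39.4 CPM with DMSO, a log2 difference of -0.69 (SE 0.326, edgeR adjusted p = 1). With the replicate number as a block 0 members were called at 40, where 0.00705% of all tested genes were called. The edgeR fit with this block gave 1 member an unadjusted p under 0.05 at 20 and 2 at 40. Within replicates 2 and 3 NDUFC2 differed by 0.0239 and -0.0452. Without replicate 1 of DMSO at 40, the members' median at 40 was 0.0753 and 52 of 58 were positive. That fit had no replicate block and compared groups unequal in replicate numbers. The difference between replicate 3 and the others therefore enters these values.

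**Figure D4:**
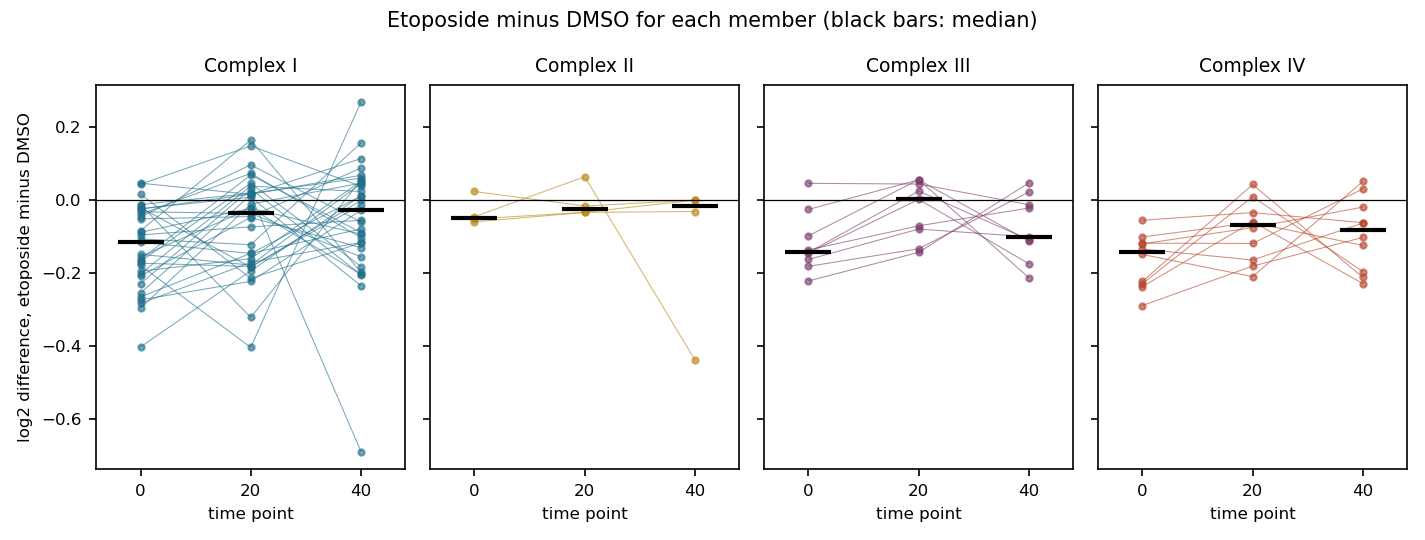
Log2 difference of etoposide minus DMSO at time points 0, 20 and 40 for the 56 tested members other than NDUFA3 and NDUFA6, by complex, with lines joining the values of 1 member and black bars at the median. Most values at 0 lie below the line, and NDUFC2 (-0.69) and SDHD (-0.44) lie lowest at 40.

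Averaged over the 3 time points, edgeR called 0 of 58 members, where 0% of all tested genes were called, and 0 had an unadjusted p under 0.05. The median log2 difference was -0.0879 and 7 members were positive. DESeq2 and limma-voom called 0 members as well. With the replicate block in edgeR 0 members were called, where 0.0282% of all tested genes were, and 5 members had an unadjusted p under 0.05. In fits without the block the median was -0.0304 without replicate 1 of DMSO at 40 and -0.0288 without replicate 2 of DMSO at 20. It was -0.0705 without replicate 3 of every group. The fits without a single library were unequal in replicate numbers. NDUFC2 (-0.31, SE 0.188), NDUFB7 (-0.19, SE 0.126), COX6C (-0.19, SE 0.15) and NDUFA8, a membrane-arm subunit with disulfide bonds (-0.19, SE 0.112), were lowest. NDUFS1 (0.08, SE 0.0653) was the highest. The medians within replicates 1, 2 and 3 were -0.00969, -0.112 and -0.101.

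At the low end, NDUFA8 had 40.8, 42.5 and 35.1 CPM at 0, 46.5, 40.96 and 39.7 at 20 and 40.7, 50.0 and 38.1 at 40 with etoposide. With DMSO it had 46.8, 53.6 and 43.6 CPM at 0, 42.2, 60.2 and 40.8 at 20 and 57.4, 49.2 and 32.9 at 40. At 0 all 3 etoposide libraries lay below all 3 DMSO libraries, with a log2 difference of -0.28 (SE 0.194, edgeR adjusted p = 0.9998), and at 20 and 40 the arms overlapped.

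At the high end, NDUFS1 had 114, 121 and 107 CPM at 0, 110.2, 143 and 118 at 20 and 118, 119.6 and 124 at 40 with etoposide. With DMSO it had 109, 103 and 119.8 CPM at 0, 123, 105 and 106 at 20 and 113, 115 and 124 at 40. The arms overlapped at each time point. NDUFA10, an accessory subunit of the membrane arm related to nucleoside kinases, had a mean log2 difference of 0.04 (SE 0.0846). Across the 18 libraries NDUFA10 had a lowest, median and highest value of 79.7, 94.8 and 110.0 CPM. Replicate 3 held the lowest value.

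The test of whether the change between 40 and 0 differed between the arms called 0 of 58 members, where 0% of all tested genes were called, with 0 at an unadjusted p under 0.05 and 0 called by DESeq2 and limma-voom. The etoposide and DMSO changes share no libraries. The median of this difference was 0.0567, and 47 of 58 members had a 95% interval within ±1. It was 0.214 without replicate 1 of DMSO at 40, a fit with no replicate block and unequal replicate numbers, and 3.21e-05 without replicate 3 of every group.

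The replicate number accounted for more of the spread of the members than the group did. In a split of the variance of log2 CPM, the number took a median of 66.1% in the members, against 39.8% over all tested genes, and the group 6.8%, against 16.2%. The share of the number exceeded that of the group in 50 of 58 members, and in 9576 of all 14186 tested genes. In the replicate 3 libraries 51 of 58 members were lower than the mean of replicates 1 and 2, with a median log2 difference of -0.37, against -0.0198 over all tested genes. In all 6 groups together, 25 of 58 members (43.1%) lay below every library of replicates 1 and 2, against 9.14% of all tested genes. Libraries of 1 number may share an experiment, so no test is given.

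**Figure D5:**
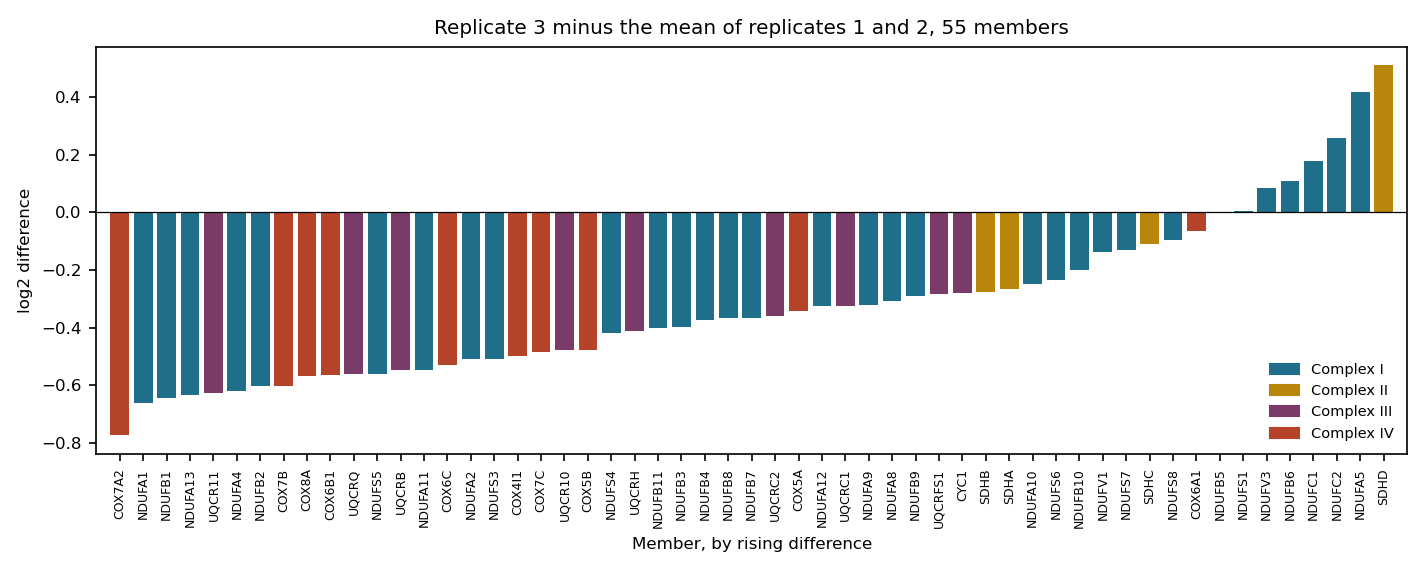
Log2 difference of replicate 3 minus the mean of replicates 1 and 2, over the 6 groups, for 55 tested members coloured by complex. COX7A2 (-0.77) is lowest and SDHD (0.51) highest, and NDUFA3 and NDUFA6 are left out because they were at or near 0 in replicate 3.

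In complex IV all 10 members and in complex III all 9 were lower in replicate 3. COX7A2, a small subunit of complex IV, ranged from 63.0 to 73.8 CPM in replicate 3 and from 93.1 to 140 CPM in replicates 1 and 2, with no overlap. The 7 exceptions were SDHD (81.8 to 94.0 CPM in replicate 3 and 41.9 to 112 CPM in the others), NDUFA5 (log2 difference 0.42), NDUFC2 (0.26), NDUFC1, its partner at the membrane arm (0.18), NDUFB6 (0.11), NDUFV3 (0.0836) and NDUFS1 (0.00612). In all 7 the replicate 3 libraries overlapped the others.

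A pair of complex I members was at or near 0 in replicate 3. NDUFA6, a LYR-motif subunit that holds the acyl carrier protein (chr22:42085525-42090955, GRCh38), had 0 counts in all 6 replicate 3 libraries, against 20.7 to 30.9 CPM in replicates 1 and 2. NDUFA3, a membrane-arm subunit (chr19:54102728-54109257, GRCh38), had 0 to 0.249 CPM, against 18.5 to 36.1 CPM. Neither could be judged between treatments from replicate 3, and the SE of their log2 changes without a block reached 2.1 for NDUFA6 and 1.98 for NDUFA3. The headers of the replicate 3 files carry a different suffix from the others, and whether these files were counted the same way was not tested.

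In related gene lists 1 gene was called between 40 and 0, the regulator MYC, already named above as an early-response gene. Over all tested genes 0.204% were called with etoposide and 0.423% with DMSO, so counts of 0 do not set these lists apart. Of the ATP synthase genes, which make ATP from the proton gradient, 19 of 19 were tested, and 0 were called between 40 and 0 in either arm. The median log2 changes were 0.0597 with etoposide and 0.062 with DMSO. Of the assembly factors, 53 of 53 were tested and 0 called, with medians of 0.0164 and -0.0618. Of 12 other subunits and tissue isoforms, 6 were tested and 0 called. In each of these lists edgeR gave 0 genes an unadjusted p under 0.05 between 40 and 0.

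Of the regulators of mitochondrial gene expression, 15 of 18 were tested and 1 was called lower in both arms, MYC. It is a transcription factor with a short-lived mRNA that was also among the early-response genes, so its call is not a separate result. MYC had 17.9, 13.2 and 19.3 CPM at 40 with etoposide, against 38.8, 38.9 and 59.2 CPM at 0. With DMSO it had 12.3, 12.8 and 19.5 CPM at 40, against 50.5, 62.4 and 66.9 CPM at 0. The groups did not overlap in either arm. It fell by 1.44 (SE 0.253, edgeR adjusted p = 0.0215) with etoposide and by 2.01 (SE 0.258, edgeR adjusted p = 0.000696) with DMSO on the log2 scale.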

How the data were processed

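RNA was measured in 18 libraries. HISAT2 alignment, featureCounts and bcl2fastq on GRCh38 (hg38) stand in the submitters' processing notes, while their versions, annotation and strand setting were not given in the sources used here. The authors deposited raw counts per Ensembl gene. Of 58051 identifiers, 57447 matched GENCODE release 29, which gave symbols, positions and exon lengths. Members and lists were chosen with earlier results of these data known. Members named with values are those at the extremes of level or change in each complex or comparison and those with 0 counts in a library, and others were named after their values were seen. For 1 member, no value of its own is reported here; it stays in the fits and totals.

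Counts were tested with edgeR 4.0.16 (R 4.3.3; quasi-likelihood, robust, TMM, default filter) in one model of 6 groups, with Benjamini-Hochberg adjustment over 14186 genes and calls at an adjusted p under 0.05. DESeq2 1.42.0, limma-voom (limma 3.58.1), other scalings, no filter, fewer groups, left-out libraries and a replicate block were alternatives. The code was tested on simulated data that held no difference between replicate numbers, so that test says nothing about the pairing. Same-numbered libraries deviated together (45 pairs, r 0.359 to 0.911, against a minimum of 0.1). Pairing a library numbered 1 with one numbered 2 gave r of 0.392 to 0.63, inside that range. All 18 libraries nevertheless correlated best, across groups, with a library of their own number. The label numbers were treated as pairs only in the fits with a replicate block and in the values given within replicates. The main model held the groups alone, so its p-values, SEs and intervals leave the pairing out.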

Additional observations from a re-analysis of the deposited data

How the results depend on the processing

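The count of members called was 0 in all 251 recomputed pairs of comparison and setting, including the replicate block, DESeq2 and limma-voom. In the comparisons other than 40 against 0 within an arm, the main test called 0% of all tested genes. The zeros there therefore say nothing particular about the members. With the block the pairing called 143 and 173 of all tested genes between 40 and 0 with etoposide and DMSO, against 29 and 60 without it, but 0 members, and the members' medians were 0.0795 and -0.00301. In the mean difference between the arms the block left 0 members called and gave 5 an unadjusted p under 0.05. For etoposide minus DMSO it gave 2 such members at time point 0, 1 at 20 and 2 at 40. Between 20 and 0 with etoposide it gave 1. The members' median with etoposide between 40 and 0 was 0.0484 with library totals only and -0.00634 scaled to ribosomal protein genes, against -0.0287 and -0.0874 over all tested genes. Under the same ribosomal scaling the medians of etoposide minus DMSO were -0.00315 at 0 and -0.015 in the mean over time points (0.064 over all tested genes), and the median of all tested genes moved by over 0.1 at 0 (to 0.127), between 20 and 0 with etoposide (to -0.107) and in the difference of changes (to -0.108). NDUFB5 between 40 and 0 with etoposide was 0.00369 without replicate 3 of every group with the replicate block, an alternative chosen after seeing the data. With the longest transcript as length, the median level was 47.17 CPM per kb. The cause was not tested.

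Leaving out 1 library at a time gave members' medians of -0.0394 to 0.203 (40 against 0, etoposide), -0.134 to 0.159 (40 against 0, DMSO), -0.036 to 0.16 (20 against 0, etoposide) and -0.149 to 0.0926 (20 against 0, DMSO). For etoposide minus DMSO they were -0.23 to 0.0112 at 0, -0.141 to 0.0982 at 20, -0.174 to 0.0753 at 40 and -0.136 to -0.0288 in the mean, and for the difference of changes -0.0809 to 0.214. None of these fits held the replicate block, and each left a group without 1 replicate number. The difference between replicate 3 and the others therefore enters these ranges. Single members were recomputed only in the comparison that named them, and those that changed sign were, with etoposide between 40 and 0, SDHD (-0.374 to 0.101), NDUFB5 (-0.154 to 0.0398), NDUFA4 (-0.22 to 0.131) and COX6C (-0.00564 to 0.371). With DMSO they were NDUFB5 (-0.166 to 0.318), NDUFA6 (-0.385 to 0.877) and NDUFC2 (-0.149 to 0.704), and in the mean difference NDUFA6 (-0.133 to 0.288).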
